A study of Fundulus heteroclitus with 36 samples.

Results

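Splicing factor genes were taken as every gene whose symbol begins with srsf, hnrnp, hnrpk, sf3a, sf3b, snrp, snrnp, prpf, u2af, rbfox, nova1, nova2 or celf. This rule, which uses the symbol and no measured value, took 69 of the 31637 genes measured in whole brains of Atlantic killifish (Fundulus heteroclitus) embryos. All 69 passed the filter on low counts, which left 23292 genes for testing, and 0 of the 69 stayed under 3 counts in every library. By symbol they fell into 18 snRNP proteins, 9 SF3 subunits, 11 PRP factors, 2 U2AF subunits, 11 SR proteins, 9 hnRNPs and 9 neural and developmental regulators.

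Each library came from 1 embryo brain at 17 days after fertilisation, with 6 embryos in each of 6 groups. SCO PCB40 embryos, of the Scorton Creek population, had been held in 40 ng/L PCB126, a dioxin-like polychlorinated biphenyl, from day 1 to day 7. SCO Hg Fed embryos were the offspring of Scorton Creek fish given a tuna diet high in methylmercury and met no PCB126. SCO Control embryos were unexposed offspring of Scorton Creek fish on a salmon diet low in methylmercury. NBH PCB40 and NBH PCB400 embryos, of the New Bedford Harbor population, had been held in 40 or 400 ng/L PCB126 over the same days, and NBH Control embryos were their unexposed reference. All embryos given PCB126, like both control groups, had parents on the salmon diet. New Bedford Harbor is a PCB-polluted site whose killifish are known for their tolerance of dioxin-like compounds. The labels do not name a carrier for PCB126, and parentage within a group is not stated, so p-values measure the spread between these embryos, which may share a clutch. Scorton Creek embryos at 400 ng/L were not analysed here.

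Libraries held 38.5 to 66.4 M estimated reads. CYP1A, the cytochrome P450 gene induced by dioxin-like compounds, checked the exposure. In counts per M reads after TMM scaling (CPM) it ran from 97.8 to 270 (median 125) in SCO PCB40 brains, against 1.08 to 11.0 (median 2.55) in SCO Control brains. In New Bedford Harbor it ran from 2.72 to 11.8 (median 5.11) in NBH Control, from 7.14 to 149 (median 78.1) in NBH PCB40 and from 44.5 to 608 (median 436) in NBH PCB400. The brain label was met by neuron markers, whose 12 tested genes summed to 4331 to 8041 CPM across all groups. Libraries also differed in their dependence on transcript length. A library's length slope is the slope, across genes, of its log2 expression relative to the mean library on log2 effective transcript length. It averaged -0.086 (SD 0.030) in NBH Control, -0.080 (SD 0.116) in NBH PCB40, 0.026 (SD 0.111) in NBH PCB400, -0.021 (SD 0.149) in SCO PCB40, 0.067 (SD 0.041) in SCO Hg Fed and 0.093 (SD 0.042) in SCO Control. Most of the 18 snRNP protein genes are short, with a median effective length of 611 bases and a range of 229 to 6508. Most of the 9 neural and developmental regulators are long, with a median of 4816 bases and a range of 1811 to 13047. The median over all tested genes was 2081 bases.

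Splicing removes introns from pre-mRNA. The snRNPs, small nuclear RNAs bound by a ring of Sm proteins and by particle-specific proteins, recognise the ends of the intron, and the SF3A and SF3B complexes bind the branch site as part of the U2 snRNP. PRP factors assemble and drive the catalytic spliceosome, U2AF reads the 3′ splice site, and SR proteins and hnRNPs bind exons and introns and often act in opposite directions on exon choice. RBFOX, NOVA and CELF proteins set many of the exon choices that distinguish neurons and muscle from other cells.

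The splicing factor genes were abundant in these brains. In TPM, transcripts per M, which divides by transcript length, 67 of the 69 lay above the median tested gene, and the median splicing factor gene lay at percentile 90.3. The highest was snrpe, an Sm ring protein, at a mean of 1071 TPM over all libraries, with a range of 696 to 1426 TPM. It was followed by snrpg, another Sm ring protein, at 713 TPM. Among SF3 subunits the small proteins sf3b5 (629 TPM) and sf3b6 (479 TPM) led. The hnRNPs were led by hnrnpk, which binds C-rich RNA, at 266 TPM and hnrnpaba at 202 TPM, and the SR proteins by the duplicate pair srsf3b (262 TPM) and srsf3a (253 TPM). Of the U2AF subunits, the small subunit gene u2af1 stood at 249 TPM and the large subunit gene u2af2a at 9.61 TPM. Among the neural and developmental regulators rbfox1 (147 TPM) and celf3a (133 TPM) came first, and among PRP factors prpf19 (66.0 TPM) and prpf38a (49.99 TPM). The lowest member was rbfox1l, known in zebrafish as a splicing regulator of muscle, at 0.156 TPM.

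The spread between embryos of the same group varied widely among these genes. The within-group standard deviation of log2 CPM was lowest for prpf31, a U4/U6 snRNP protein, at 0.12, which placed it at percentile 0.52 of the tested genes. It was highest for the SR protein genes srsf10b (1.24) and srsf4 (1.15) and for snrpb2, a U2 snRNP protein (1.11), which were singled out after their values were seen. Within NBH PCB40 alone, srsf10b ran from 2.55 to 95.3 CPM, and within SCO PCB40 srsf4 ran from 1.55 to 58.2 CPM. No group of 6 separated from another for srsf4 or srsf10b, since each group's range overlapped every other's.

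At 400 ng/L PCB126, New Bedford Harbor brains had lower levels of RNA for several proteins of the core splicing machinery. Of the 69 genes, 8 were lower in NBH PCB400 than in NBH Control at an adjusted p under 0.05 and 0 were higher. That is 11.6% of the members, against 3.74% of all tested genes called in either direction, 2.31% called lower and 1.43% called higher. The 8 were the Sm ring genes snrpd2, snrpe and snrpf, the U1 and U2 snRNP genes snrpa and snrpa1, the SF3B subunit gene sf3b2, prpf19 and srsf3a. Across all members 52 of 69 log2 fold changes (75.4%) were below 0, against 44.9% of tested genes, and the median was -0.27, against 0.05 for all tested genes. At an unadjusted p under 0.05, 31 of 69 were lower (44.9%, against 10.1% of tested genes) and 3 were higher (10.5% of tested genes). In 12 genes (17.4%, against 2.28% of tested genes) every NBH PCB400 brain lay below every NBH Control brain, and in 0 genes did every one lie above (0.846% of tested genes). In whole brains, fewer cells of a type and less RNA per cell cannot be told apart.

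The snRNP proteins had the lowest median of these classes. Of their 18 genes 17 had a log2 fold change below 0, with a median of -0.58, and 5 were called lower. The gene snrpd2, an Sm ring protein, ran from 165 to 248 CPM (median 204) in NBH PCB400 and from 297 to 436 CPM (median 351) in NBH Control. The groups did not overlap, and snrpd2 was 1.76-fold lower (log2 fold change -0.82, SE 0.20, adjusted p = 0.0223). Its ring partner snrpe ran from 148 to 251 CPM (median 203) in NBH PCB400, against 287 to 378 CPM (median 340) in NBH Control (log2 fold change -0.75, SE 0.20, adjusted p = 0.0299). For snrpf, also of the ring, the ranges were 95.5 to 157 CPM (median 120) in NBH PCB400 and 161 to 220 CPM (median 203) in NBH Control (log2 fold change -0.68, SE 0.17, adjusted p = 0.0257). Neither pair of ranges overlapped. The U2 snRNP gene snrpa1 ran from 88.5 to 143 CPM (median 117) in NBH PCB400 and from 161 to 205 CPM (median 187) in NBH Control, again without overlap (log2 fold change -0.64, SE 0.18, adjusted p = 0.0417). The U1 snRNP gene snrpa ran from 55.2 to 132 CPM (median 85.0) in NBH PCB400 and from 99.1 to 148 CPM (median 128) in NBH Control (log2 fold change -0.56, SE 0.16, adjusted p = 0.0483). Here 1 exposed brain lay within the control range and 5 lay below it. The exception among snRNP proteins was snrnp70, the U1-70K protein, with a log2 fold change of 0.0094.

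**Figure D1:**
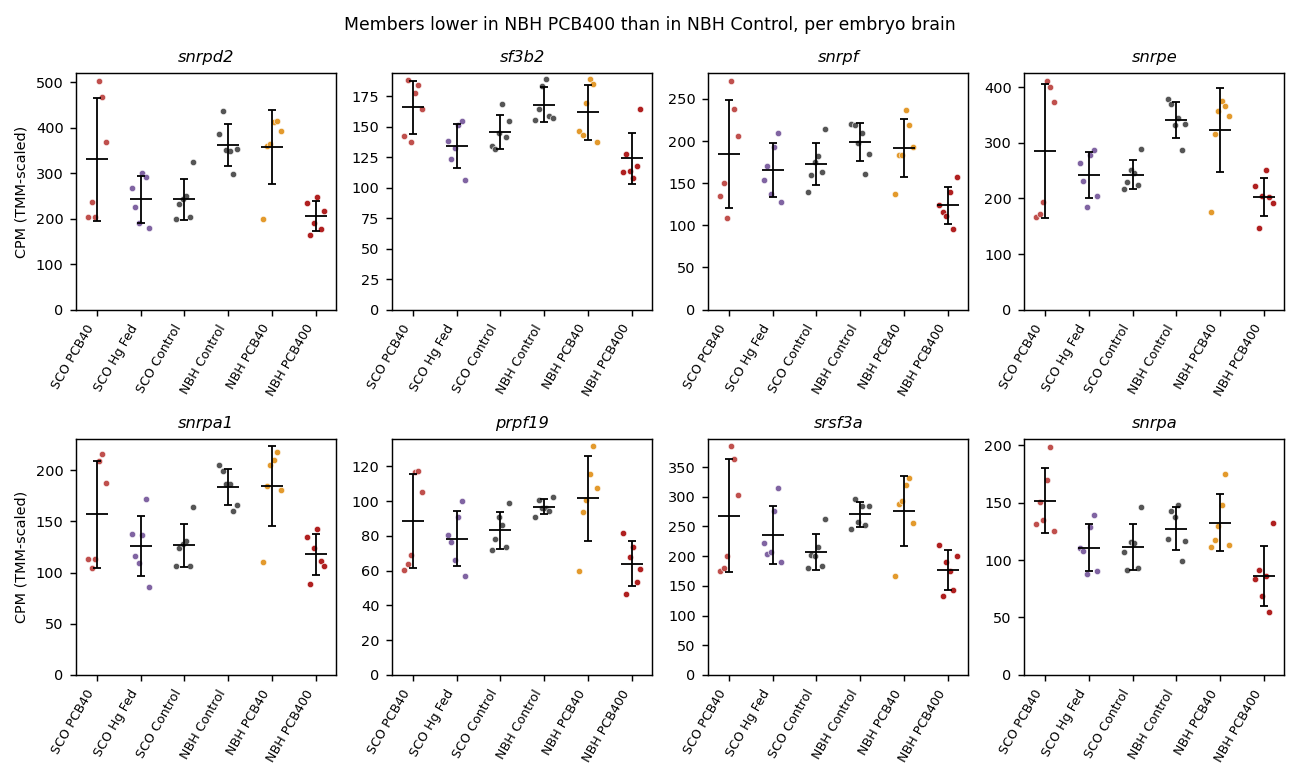
CPM (vertical axis, from 0) of the 8 splicing factor genes called lower in NBH PCB400 than in NBH Control, for each of the 36 embryo brains by group (horizontal axis; points are brains, the line is the group mean and the bar its SD, n = 6). NBH PCB400 brains lie low in every panel, with no overlap with NBH Control in 6 of the 8 genes, and the NBH PCB400 mean is below those of NBH Control and NBH PCB40 in each gene.

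All 9 SF3 subunits had a log2 fold change below 0 in NBH PCB400, with a median of -0.31, and 1 was called. This was sf3b2, which contacts the RNA beside the branch site. It ran from 108 to 165 CPM (median 116) in NBH PCB400 and from 156 to 189 CPM (median 162) in NBH Control (log2 fold change -0.44, SE 0.11, adjusted p = 0.0256). In this gene 5 of 6 exposed brains lay below every control brain, and the sixth, NBH PCB400 replicate 6, stood apart at 165 CPM. In 3 further subunit genes, sf3a1, sf3a3 and sf3b4, all 6 exposed brains lay below all controls, with adjusted p of 0.0676, 0.179 and 0.207. Of 11 PRP factors 8 were below 0 with a median of -0.18, and 1 was called, prpf19, the ubiquitin ligase that gives its name to a complex of the active spliceosome. It ran from 46.7 to 81.5 CPM (median 64.3) in NBH PCB400 and from 90.6 to 102 CPM (median 96.0) in NBH Control, without overlap (log2 fold change -0.60, SE 0.17, adjusted p = 0.0468).

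Among the SR proteins 8 of 11 were below 0, with a median of -0.29 and 1 call. The called gene, srsf3a, encodes an SR protein that also takes part in mRNA export. It ran from 133 to 219 CPM (median 182) in NBH PCB400 and from 245 to 296 CPM (median 271) in NBH Control, without overlap (log2 fold change -0.61, SE 0.18, adjusted p = 0.0477). Its duplicate srsf3b had a log2 fold change of -0.53 (adjusted p = 0.0834). How reads were divided between such near copies cannot be checked from these values. Of 9 hnRNPs 7 were below 0 (median -0.18) and 0 were called. The 9 neural and developmental regulators lay the other way, with 7 of 9 above 0, a median of 0.22 and 0 calls, and nova2, a neuronal splicing regulator, had 0.33 (SE 0.12, adjusted p = 0.116). Most genes of this class are long, though rbfox1 (1811 bases) and rbfox1l (1960 bases) are shorter than the median tested gene. Long genes in general lay above 0 in this comparison. With all tested genes split into 20 bins of length, those of median length 4696, 5683 and 7927 bases had medians of 0.16, 0.20 and 0.25. The bins of median length 284 and 583 bases had medians of -0.15 and -0.16. The part of transcript length in the direction of this class was not tested. In the U2AF pair, u2af1 had a log2 fold change of -0.09 and u2af2a 0.58 (SE 0.36), and neither was called.

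**Figure D2:**
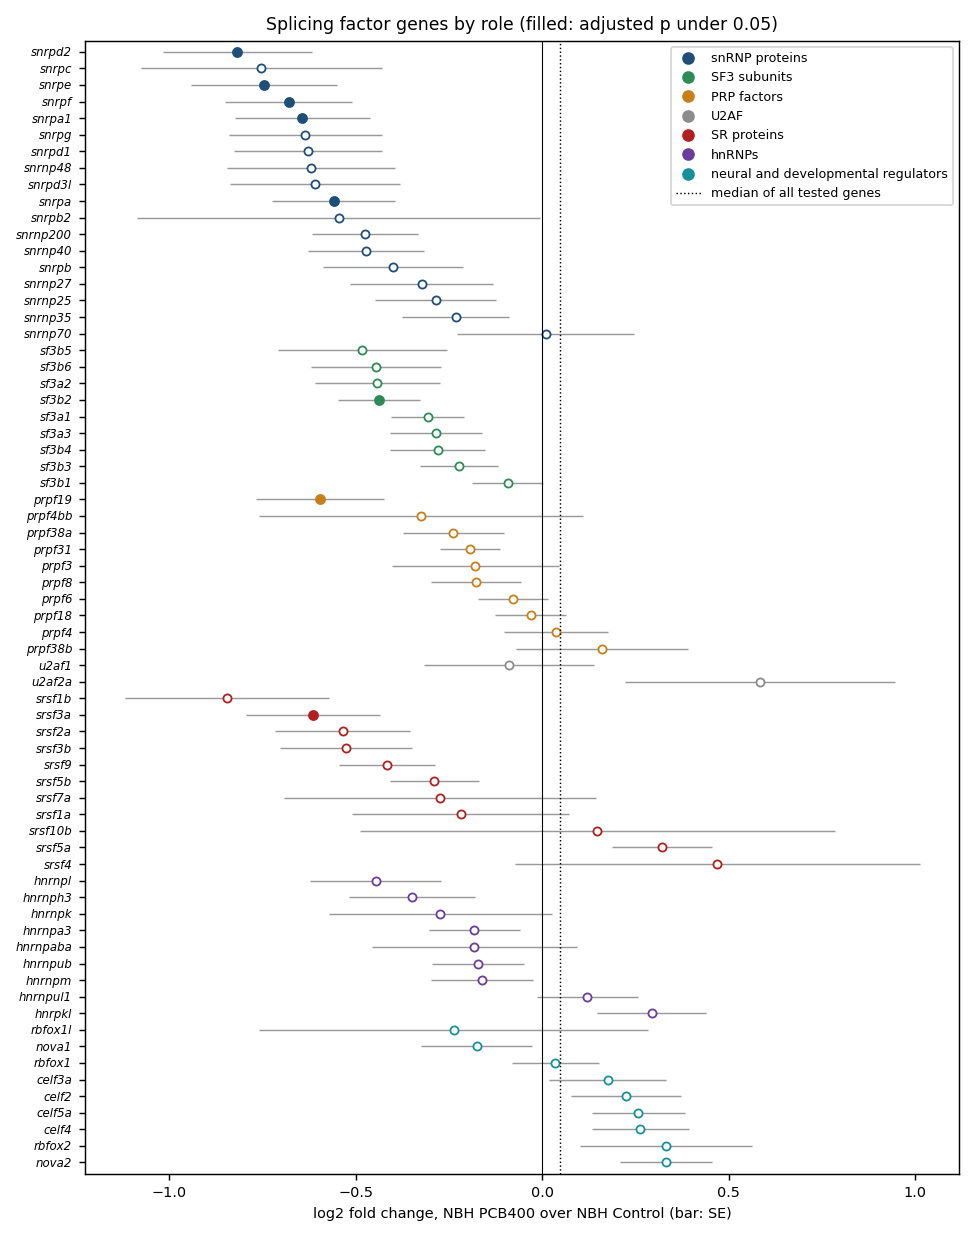
Log2 fold change of NBH PCB400 over NBH Control (horizontal axis) for 68 of the 69 splicing factor genes, 1 line each, ordered within their class; bars are the SE and filled points have an adjusted p under 0.05. The snRNP proteins and SF3 subunits lie almost wholly left of 0, with medians of -0.58 and -0.31, and most neural and developmental regulators lie right of it.

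Both transcript length and markers of dividing cells moved with this result. In this comparison the median fold change of all genes was higher for longer transcripts (Spearman's rho across the 23292 tested genes, which are not independent replicates, was 0.243). With the length trend of each library taken out, the median of the snRNP proteins was -0.36 and 6 members were called, snrnp200 and 5 of the 8. With each library's slope as a covariate the snRNP median was -0.35 and 1 member, sf3b2, was called. Calls over all tested genes were 845 with the trend taken out and 498 with the covariate. All 15 tested proliferation genes were below 0 (median -0.83), with 4 called lower, mcm6, mcm7, cdk1 and aurkb, and they summed to 260 to 660 CPM in NBH PCB400 and to 602 to 929 CPM in NBH Control. The 12 neuron markers summed to 5732 to 6600 CPM in NBH PCB400 and to 7196 to 7722 CPM in NBH Control, with 1 called lower. They were mixed gene by gene, with 7 of 12 log2 fold changes below 0, a median of -0.18 and a range of -0.71 to 0.45. Called members of the other marker lists were 1 higher and 1 lower of 8 microglia and leukocyte genes, and 0 of 11 oligodendrocyte, 0 of 6 radial glia and astrocyte, 0 of 4 erythrocyte, 0 of 10 skeletal muscle and 0 of 7 pituitary genes. The part of dividing cells in the splicing factor result was not tested. The count of 8 calls depended on single libraries. It was 3, 1, 4, 3, 9 and 3 without NBH Control replicates 1 to 6. It was 9 (8 lower and 1 higher), 0, 2, 6, 0 and 9 without NBH PCB400 replicates 1 to 6, and 17 with DESeq2. Calls over all tested genes, 870 in the main fit, were 583, 324, 566, 583, 764 and 379 without NBH Control replicates 1 to 6. They were 870, 192, 368, 836, 198 and 1360 without NBH PCB400 replicates 1 to 6, and 1565 with DESeq2. Over the 12 fits that each left out 1 library, the median of all members stayed between -0.29 and -0.23 and that of the snRNP proteins between -0.65 and -0.49. Of 21 alternatives, snrpd2 lost its call in 4, sf3b2 and snrpf in 6 each and snrpe in 7. The call was lost in 11 for snrpa1, 13 for prpf19, 14 for srsf3a and 15 for snrpa.

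**Figure D3:**
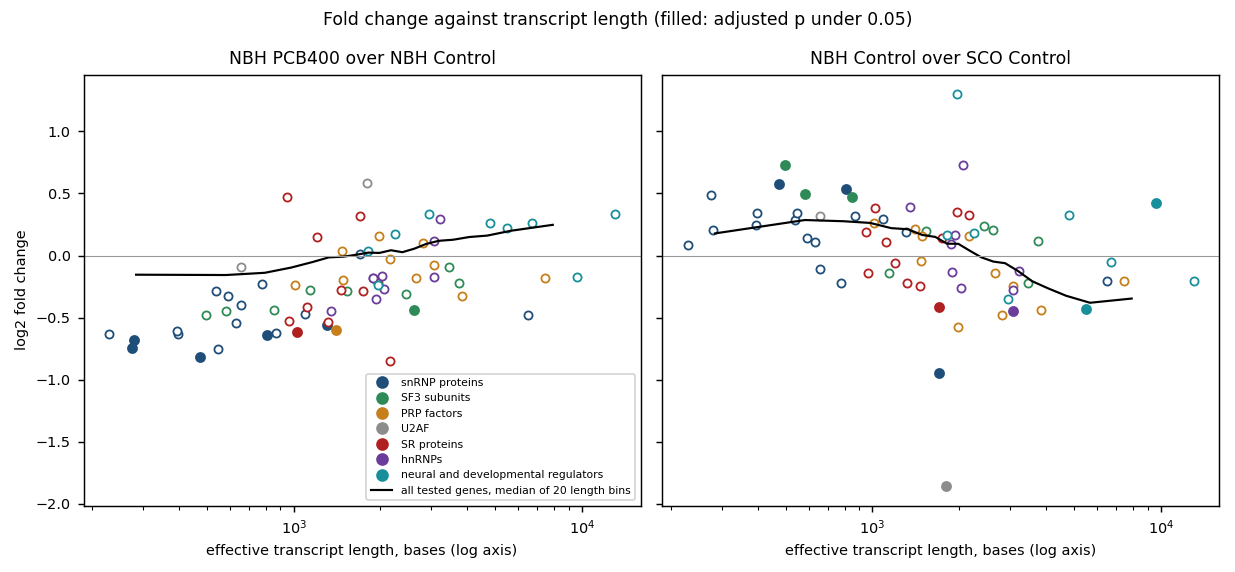
Log2 fold change (vertical axis) against effective transcript length in bases (horizontal log axis) for the 69 splicing factor genes, coloured by class and filled where the adjusted p was under 0.05, in NBH PCB400 over NBH Control (left) and NBH Control over SCO Control (right). The black line is the median of all tested genes in 20 bins of length; it climbs with length on the left and declines on the right, and the snRNP proteins on the left lie below it.

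Other genes of the splicing pathway were counted from 3 lists outside the symbol rule. Of 60 tested core spliceosome genes, 5 were called lower in NBH PCB400 and 0 higher, 49 had a log2 fold change below 0, and the median was -0.16. Of all tested genes 2.31% were called lower, 1.43% were called higher and 44.9% were below 0, with a median of 0.05. The 5 were ppil1 (-0.96), phf5a (-0.84), a further SF3B component, magoh (-0.74), a subunit of the exon junction complex, lsm5 (-0.55), of the U6-binding LSM ring, and rbm22 (-0.33). Of 39 other splicing regulators 3 were called lower and 0 higher, khdrbs1a (-0.61), fubp1 (-0.45) and rbm39b (-0.34), beside the same shares of all tested genes, and the median was 0.04. Of 7 kinases that phosphorylate SR proteins 0 were called, and their median was 0.09. The part of transcript length in the counts and medians of these lists was not tested.

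At 40 ng/L, 0 of the 69 genes differed between NBH PCB40 and NBH Control, by edgeR or DESeq2, and 0 had an unadjusted p under 0.05 (3.06% of tested genes did). Of all 23292 tested genes 0 were called by edgeR and 18 by DESeq2. Members lay evenly about 0, with 32 of 69 below it (46.4%, against 47.4% of tested genes) and a median of 0.02. Among the members with small p were hnrnpm (log2 fold change 0.23), sf3b3 (0.17), prpf4 (0.22) and snrpb (0.27), with unadjusted p of 0.103, 0.106, 0.120 and 0.167. The snRNP proteins summed to 1875 to 2859 CPM (median 2375) in NBH Control, 1590 to 2994 CPM (median 2317) in NBH PCB40 and 1389 to 1763 CPM (median 1559) in NBH PCB400. Only the 400 ng/L group lay wholly below the controls.

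In Scorton Creek brains at 40 ng/L, 0 of 69 genes were called, where 2.67% of all tested genes were. An unadjusted p under 0.05 was reached by 12 members, 17.4% of the 69, against 17.9% of tested genes. Of these 6 were lower and 6 higher (8.70% each), against 9.33% of tested genes lower and 8.57% higher. The nearest to a call was sf3b1, the branch-site subunit of SF3B, which ran from 81.3 to 116 CPM (median 93.3) in SCO PCB40 and from 98.2 to 138 CPM (median 122) in SCO Control (log2 fold change -0.32, SE 0.10, adjusted p = 0.0575). The U5 helicase gene snrnp200 ran from 18.7 to 29.2 CPM (median 24.5) in SCO PCB40 and from 27.4 to 39.4 CPM (median 33.5) in SCO Control (log2 fold change -0.47, SE 0.14, adjusted p = 0.0649). In both genes 5 of 6 exposed brains lay below every control. After them came snrpa (0.45), hnrnpub (-0.32), which encodes an hnRNP U protein, and srsf2a (-0.45), with adjusted p of 0.131, 0.152 and 0.176. DESeq2 called sf3b1 and snrnp200, and edgeR called sf3b1 without SCO Control replicate 6. Without SCO PCB40 replicate 2 edgeR called sf3b1, snrnp200 and hnrnpub. Of all 23292 tested genes these fits called 1303, 598 and 1469 in that order. Across all tested genes, fold changes in this comparison declined with transcript length (Spearman's rho -0.356). Effective lengths were 3449.5 bases for sf3b1 and 6508 bases for snrnp200. Across the alternative settings their log2 fold changes came as near to 0 as -0.16 and -0.19. With the length trend taken out, or with the length slope as a covariate, 0 of the 69 genes were called. Of all tested genes 320 and 751 were called in these settings. Of 39 tested splicing regulators outside the symbol rule, 2 were called lower in SCO PCB40 and 0 higher, beside 447 lower and 175 higher of all 23292 tested genes. They were qkia (log2 fold change -0.58, adjusted p = 0.00316) and fubp3 (-0.45, adjusted p = 0.0216). Unexposed NBH Control brains were also lower in both against the same SCO Control brains (-0.71 and -0.50). Of the marker genes in SCO PCB40, 3 of 11 oligodendrocyte genes were called lower and 3 of 8 microglia and leukocyte genes higher. Of 10 skeletal muscle genes 4 were called higher and 1 lower. Calls were 0 of 15 proliferation, 0 of 12 neuron, 0 of 6 radial glia and astrocyte, 0 of 4 erythrocyte and 0 of 7 pituitary genes. The part of cell types in the differences of splicing genes was not tested.

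The SCO PCB40 brains spread widely in snRNP protein RNA. Replicates 4, 5 and 6 summed to 3387, 3137 and 2401 CPM over the 18 snRNP genes, and replicates 1, 2 and 3 to 1688, 1780 and 1695 CPM, against 1676 to 2473 CPM in SCO Control. The length slopes of replicates 4, 5 and 6 were -0.185, -0.135 and -0.117, and those of replicates 1, 2 and 3 were 0.093, 0.198 and 0.019. For snrpd2 replicates 4, 5 and 6 had 503, 468 and 368 CPM, and replicates 1, 2 and 3 had 204, 237 and 204 CPM.

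The difference between populations in the response to 40 ng/L, NBH PCB40 over NBH Control minus SCO PCB40 over SCO Control, was called for 0 of 69 genes by edgeR and by DESeq2. Of all tested genes edgeR called 4 (0.0172%) and DESeq2 called 76. An unadjusted p under 0.05 was reached by 5 members (7.25%, against 9.17% of tested genes), and all 5 differences were positive (5.62% of tested genes were). They were u2af2a (1.11, SE 0.51), snrnp70 (0.69, SE 0.34), hnrnpub (0.45, SE 0.17), snrnp200 (0.45, SE 0.20) and sf3b1 (0.28, SE 0.13), with adjusted p between 0.427 and 0.540.

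Parental methylmercury was followed by 0 calls among the 69 genes and 0 among all tested genes in edgeR. DESeq2 called 0 of the 69 and 77 of all 23292 tested genes. An unadjusted p under 0.05 was reached by 2 members (2.90%), against 5.45% of tested genes. One was rbfox2, which ran from 57.8 to 108 CPM (median 69.5) in SCO Hg Fed and from 57.9 to 151 CPM (median 127) in SCO Control (log2 fold change -0.54, SE 0.23, adjusted p = 0.761). The other was rbfox1l, at 0.105 to 1.01 CPM (median 0.237) in SCO Hg Fed and 0.063 to 0.369 CPM (median 0.124) in SCO Control (log2 fold change 1.18, SE 0.54, adjusted p = 0.815), and the log2 fold change was 0.51 without SCO Hg Fed replicate 5. Both ranges overlapped. The members prpf6 (-0.17), snrpd3l (-0.35) and sf3b4 (-0.19) followed, each with an adjusted p of 1.00. The median over the 69 genes was -0.03.

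Between the unexposed brains of the 2 populations, 11 of 69 genes differed, 6 higher and 5 lower in NBH Control. At 15.9% this share was close to the 17.4% of all tested genes called in the same comparison (7.33% higher and 10.0% lower), so the count is no result about splicing factor genes as a group. Without overlap between the populations were 4 members lower and 4 higher (5.80% each), against 7.68% and 5.44% of tested genes. The largest difference was in u2af2a, the U2AF subunit that binds the polypyrimidine tract. It ran from 3.90 to 11.3 CPM (median 7.22) in NBH Control and from 20.7 to 35.8 CPM (median 26.7) in SCO Control. The populations did not overlap, and u2af2a was 3.62-fold lower in NBH Control (log2 fold change -1.86, SE 0.37, adjusted p = 0.00197). Of its 5 listed transcripts 3 carried nearly all reads, with means of 127, 119 and 121 reads in NBH Control and of 484, 486 and 568.1 reads in SCO Control. In the exposed groups u2af2a had a median of 9.86 CPM in NBH PCB40, 7.94 CPM in NBH PCB400, 11.4 CPM in SCO PCB40 and 17.1 CPM in SCO Hg Fed.

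The gene snrnp70, whose U1-70K protein binds the U1 small nuclear RNA, ran from 56.9 to 74.8 CPM (median 59.0) in NBH Control and from 93.0 to 135 CPM (median 121) in SCO Control (log2 fold change -0.95, SE 0.24, adjusted p = 0.00911). For hnrnpub the ranges were 126 to 156 CPM (median 148) in NBH Control and 165 to 211 CPM (median 199) in SCO Control (log2 fold change -0.45, SE 0.12, adjusted p = 0.0140). Neither gene's populations overlapped. Also lower in NBH Control were the SR protein gene srsf5a (-0.42, SE 0.13, adjusted p = 0.0312) and celf2, a CELF family regulator (-0.43, SE 0.15, adjusted p = 0.0420), and in each 4 of 6 NBH Control brains lay below every SCO Control brain. Of 21 alternatives, celf2 lost its call in 16 and srsf5a in 8.

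Of the 6 genes that were higher in NBH Control, 5 encode snRNP or SF3 proteins, classes that hold 18 and 9 of the 69 members. The subunit gene sf3b5 ran from 340 to 438 CPM (median 397) in NBH Control and from 146 to 349 CPM (median 236) in SCO Control (log2 fold change 0.73, SE 0.23, adjusted p = 0.0269). The others were snrpd2 (0.58, adjusted p = 0.0414), snrpa1 (0.54, adjusted p = 0.0365), sf3b6 (0.49, adjusted p = 0.0463) and sf3a2 (0.47, adjusted p = 0.0490), and in each of these 5 genes 5 of 6 NBH Control brains lay above every SCO Control brain. All 5 lost their call when the length trend of each library was taken out, with log2 fold changes of 0.48 for sf3b5, 0.34 for snrpd2, 0.26 for snrpa1, 0.23 for sf3b6 and 0.18 for sf3a2. They also lost it with the length slope as a covariate, at 0.14 for sf3b5, 0.04 for snrpd2, 0.02 for snrpa1, -0.02 for sf3b6 and -0.04 for sf3a2. A further setting, chosen after the data were seen, kept only libraries with a length slope within 0.1 of 0. There sf3b6 and sf3a2 kept their call, and sf3b5, snrpd2 and snrpa1 lost it. The sixth was nova1, a neuronal regulator, which ran from 631 to 812 CPM (median 727) in NBH Control and from 482 to 595 CPM (median 549) in SCO Control, without overlap (log2 fold change 0.43, SE 0.15, adjusted p = 0.0449). It lost its call in 11 of the 12 fits that left out 1 library. It also lost it without the filter on low counts and with the length slope as a covariate. Over all 21 alternatives its log2 fold change ran from 0.12 to 0.75. Both snrpa1 and snrpd2 were also among the genes lower in NBH PCB400, and both comparisons rest on the same NBH Control brains.

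**Figure D4:**
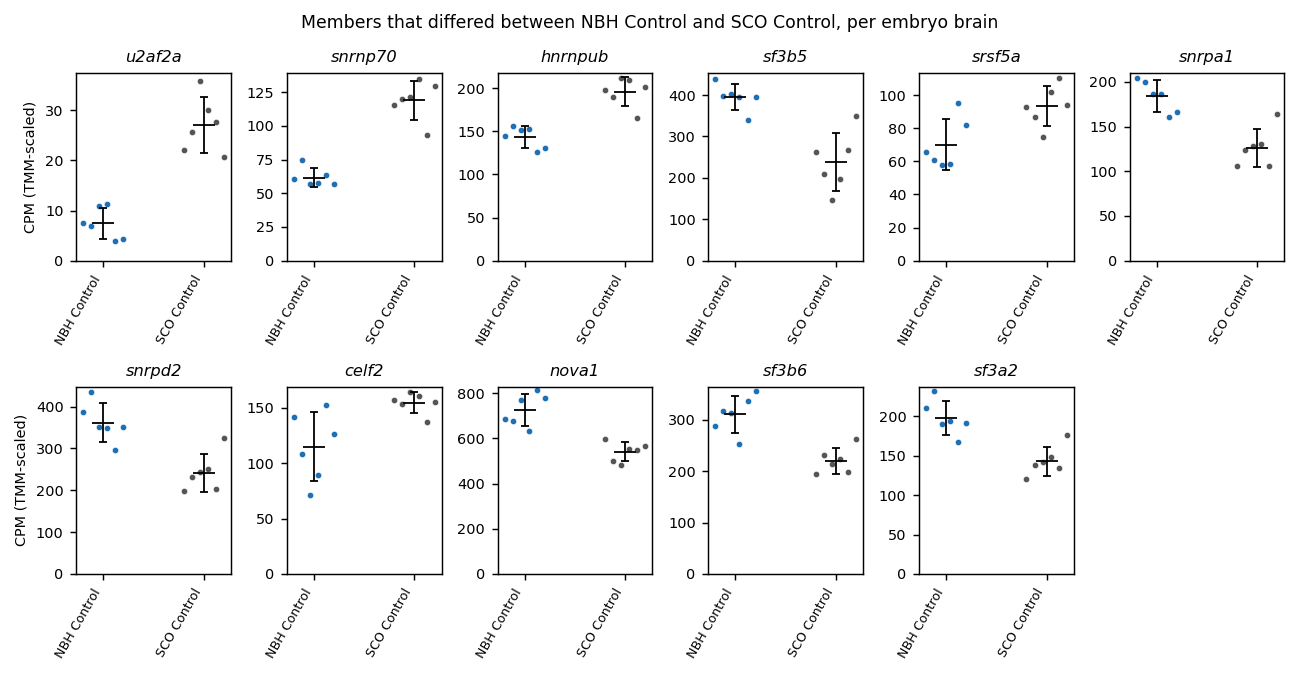
CPM (vertical axis, from 0) of the 11 splicing factor genes that differed between NBH Control and SCO Control, ordered by p, for each embryo brain (points; the line is the group mean and the bar its SD, n = 6). In u2af2a, snrnp70, hnrnpub and nova1 no NBH Control brain overlaps an SCO Control brain; in the other 7 genes the ranges meet.

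Length slopes separated these populations' controls, running from -0.116 to -0.035 in NBH Control and from 0.016 to 0.137 in SCO Control, and fold changes declined with transcript length (Spearman's rho across the tested genes -0.371). With the slope as a covariate 0 of the 69 genes were called, beside 538 of all 23292 tested genes. The differences became -1.03 for u2af2a, -0.36 for snrnp70 and -0.24 for hnrnpub. With the length trend taken out instead, 8 were called, 2 higher and 6 lower, against 6 higher and 5 lower as first given. Only 5 of these 8 were among the 11, namely u2af2a, snrnp70, hnrnpub, srsf5a and nova1. With the trend taken out, 1136 of all tested genes were called higher and 1454 lower. The count was 22 when only the 2 groups were fitted, beside 6297 of all 23292 tested genes. It was 6 without the filter on low counts, beside 3490 of 30476 genes. Leaving out 1 library gave 4, 4, 4, 6, 9 and 7 calls without NBH Control replicates 1 to 6. It gave 5, 5, 4, 3, 5 and 10 without SCO Control replicates 1 to 6. Of these calls 0 were higher without NBH Control replicate 1 or SCO Control replicate 3 or 4. Over the 12 fits 0 to 5 were higher and 3 to 5 lower. In the same fits 2746 to 3947 of all tested genes were called, against 4048 in the main fit. The genes u2af2a, snrnp70 and hnrnpub were called in all 12 such fits. Marker genes called were 1 higher and 1 lower of 12 neuron genes, 1 higher and 1 lower of 11 oligodendrocyte genes and 1 lower of 10 skeletal muscle genes. Outside the symbol rule, 10 of 60 core spliceosome genes were higher and 6 lower in NBH Control, beside 7.33% and 10.0% of all tested genes, with sart3 (-0.62) and dhx38 (-0.53) of smallest p among the lower and cwc15 (0.49) among the higher. The part of the length slope in these list counts was not tested. Of 39 other regulators 2 were higher and 6 lower, beside the same shares of all tested genes, with qkia at -0.71 (adjusted p = 0.000500), and of 7 SR protein kinases 0 were called.

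Many splicing factor genes are known to make noncoding isoforms that limit their own protein. Of the 69 genes 4 had both coding and noncoding RefSeq transcripts with enough reads, srsf1a, srsf1b, srsf7a and hnrnpaba. The share of reads on noncoding transcripts was steady in hnrnpaba, from 49.2% to 63.6% over the 36 brains. In srsf1a it ran from 9.00% to 71.1%, and every group spanned a wide part of that range, such as 10.6% to 52.3% in NBH PCB400 and 10.3% to 71.1% in NBH Control. In srsf1b it ran from 1.35% to 19.2% and in srsf7a from 0 to 12.5%. The log2 ratio of noncoding to coding reads was tested with limma over 261 genes, and 0 of the 4 were called in any of the 6 comparisons. Of the 261 genes, 7 (2.68%) were called between the control groups, 1 (0.383%) in each of SCO PCB40 and SCO Hg Fed against SCO Control, and 0 in the other comparisons. The largest difference was in srsf7a. Its noncoding share ran from 0.826% to 10.4% (median 2.67%) in NBH Control and from 0 to 0.800% (median 0.386%) in SCO Control (log2 ratio difference 3.89, SE 1.14, adjusted p = 0.0563). In SCO Hg Fed the srsf7a share ran from 0.435% to 12.5% (median 1.37%), a log2 ratio difference from SCO Control of 3.73 (SE 1.14, adjusted p = 0.294). In NBH PCB400 over NBH Control the differences were -0.14 (SE 0.12) for hnrnpaba and -0.26 (SE 0.82) for srsf1a. These shares depend on how reads were divided between transcripts of a gene, and srsf7a averaged only 10.6 noncoding reads in SCO Control. SCO Control replicates 5 and 6 had 0 such reads, so their srsf7a ratios rest on the pseudocount. With a pseudocount of 5 the srsf7a differences from SCO Control were 2.67 in NBH Control and 2.57 in SCO Hg Fed.

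**Figure D5:**
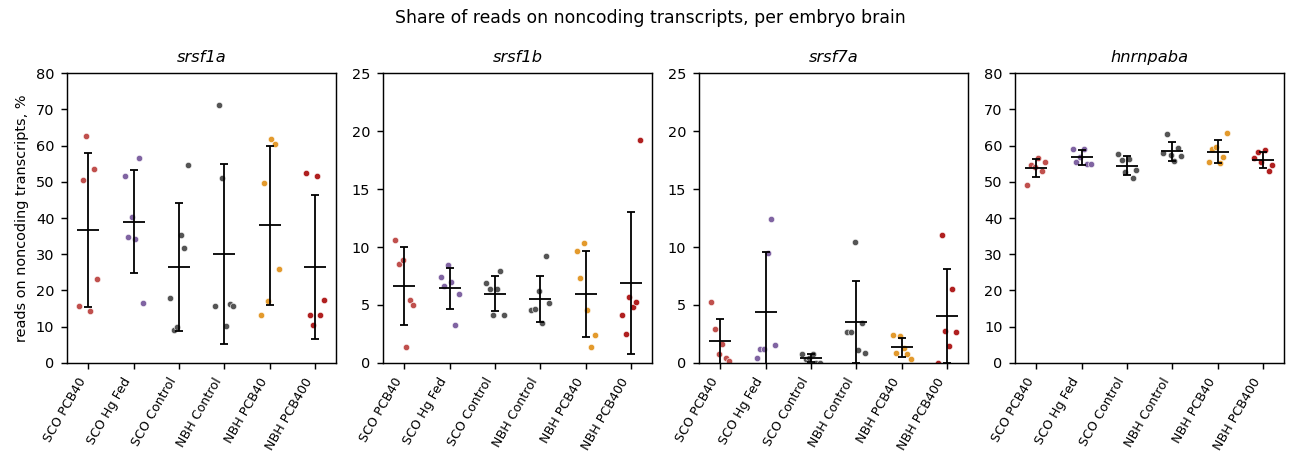
Share of a gene's reads on noncoding transcripts in percent (vertical axes, from 0, with different scales) in each embryo brain by group (points; the line is the group mean and the bar its SD, n = 6) for srsf1a, srsf1b, srsf7a and hnrnpaba. The share of srsf1a scatters over 9.00% to 71.1%, that of hnrnpaba stays between 49.2% and 63.6%, and srsf7a lies lowest in SCO Control.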

How the data were processed

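Per the labels, RNA of single embryo brains was isolated with the Qiagen RNeasy Micro kit. The submitters' processing notes name Salmon 1.3.0 and edgeR 3.30.3 without role or order. The genome build was not given in the sources used here, so no coordinates are printed. Each deposited library file held expected counts, TPM values and effective lengths in bases for 56244 transcripts. The RefSeq table of the species placed every transcript in 1 of 31637 genes, of which 14194 have a symbol. Splicing factor genes known only by a LOC number are missed by the symbol rule. No sequences are printed.

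Expected counts of a gene's transcripts were added and rounded to whole numbers. Genes were filtered with filterByExpr (23292 left) and scaled by TMM. The 36 libraries entered 1 quasi-likelihood fit (edgeR 4.0.16, R 4.3.3) with group as its only term. The threshold was a two-sided p under 0.05 after Benjamini-Hochberg adjustment over all tested genes. The SE is the log2 fold change over the square root of the test's F. Deposited TPM values were used for levels only, and lengths for length checks. Noncoding to coding ratios (pseudocount 0.5, at least 10 mean reads in each class) were tested with limma 3.58.1. The common biological coefficient of variation was 0.389, and 3 counts, taken as the floor, equal 0.047 to 0.075 CPM, which covers counting error only. The steps were tested on simulated counts without length slopes, so that test does not bear on the length dependence of the results. Alternatives were RLE scaling, DESeq2 1.42.0, no filter, only the groups compared, a replicate block, 3 length settings and leaving out each library.

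The members, classes and gene lists were chosen with earlier results of these data known. Named genes were, per comparison, the called members with the smallest p (up to 8 in each direction) or, with fewer than 3 calls, the 5 with the smallest p, plus the 2 most abundant of each class; 1 such gene is not reported here. Others were named after their values were seen, and listed genes outside the symbol rule were named where called. The genes elavl3 and elavl4 stand on both the neuron list and the list of other regulators.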

Additional observations from a re-analysis of the deposited data

Results flagged for a closer look

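In 5 of 65 sets of 6 brains examined for the named genes, 1 brain stood apart from the other 5 by Dixon's test (gap over range above 0.625). Chance gives about 1 in 20. In NBH PCB400 the highest sf3b2 value was 164.8 CPM, in replicate 6, and the next was 127.6 CPM. In SCO PCB40 the highest hnrnpub value was 202.0 CPM, in replicate 2, and the next was 157.9 CPM. In SCO Hg Fed the highest rbfox1l value was 1.01 CPM, in replicate 5, against 0.42 CPM next, and the lowest prpf6 value was 32.8 CPM, in replicate 6, against 39.3 CPM next. In NBH Control the highest snrnp70 value was 74.8 CPM, in replicate 2, and the next was 63.3 CPM.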

How the results depend on the processing

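For NBH PCB400 against NBH Control the 8 called members were 17 with DESeq2 and 5 without the filter on low counts. They were 1 with the length slope as a covariate and 0 to 9 when 1 library was left out. Calls over all tested genes, 870 in the main fit, were 1565, 636 (of 30476 genes), 498 and 192 to 1360 in that order. With the replicate number as a block there were 12 members called, 11 lower and 1 higher. In the 4 libraries of each group with a length slope within 0.1 of 0, a setting chosen after seeing the data, there were 10. These last settings called 1039 and 994 of all tested genes. For NBH Control against SCO Control the 11 called were 6 without the filter, 22 with only these groups fitted and 0 with the length slope as a covariate. They were 11 with the replicate block and 3 to 10 when 1 library was left out. In the 4 libraries of each group with a length slope within 0.1 of 0 they were 8. Calls over all tested genes, 4048 in the main fit, were 3490 (of 30476 genes), 6297, 538, 4147, 2746 to 3947 and 3603 in that order. For SCO PCB40 against SCO Control the 0 called were 2 with DESeq2, 1 with effective length as an offset and 0 to 3 when 1 library was left out. All-gene calls there, 622 in the main fit, were 1303, 601 and 247 to 1469. With the slope as a covariate the population differences of sf3b6 and sf3a2 turned to -0.016 and -0.042. In that setting limma called 1 noncoding ratio (of 4) between the control groups, srsf7a (5.65, adjusted p = 0.0135), beside 3 of 261 genes. The srsf1a ratio in NBH PCB400 over NBH Control turned to 0.16, against -0.26. The cause was not tested. Replicate numbers were not used as pairs in the main fit. Same-numbered libraries correlated at -0.25 to 0.32 in their deviations from group means. The highest were replicate 6 of NBH PCB40 (0.32) and of NBH PCB400 (0.26) with NBH Control. Differently numbered libraries were not compared, so these values cannot tell whether the numbers pair embryos. In the other 3 comparisons 0 of the 69 genes were called in every setting run. Of all tested genes, DESeq2 called 77 for SCO Hg Fed against SCO Control and 18 for NBH PCB40 against NBH Control. For the difference between populations in the response to 40 ng/L, DESeq2 called 76, and edgeR called 32 without SCO PCB40 replicate 2. With a minimum of 50 reads, 2 of the 4 noncoding ratios could be tested. Depth limits rbfox1l most, at 0.063 to 1.01 CPM.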
